A study of Mus musculus with 6 samples.

Results

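The Hoxa, Hoxb, Hoxc and Hoxd clusters are 4 gene arrays on separate mouse chromosomes, read here as fixed intervals of mouse build mm9: chr6:52100001-52215000 (Hoxa, 115 kb), chr11:96050001-96235000 (Hoxb, 185 kb), chr15:102745001-102875000 (Hoxc, 130 kb) and chr2:74495001-74610000 (Hoxd, 115 kb). Together they hold 545 bins of 1 kb among the 2641864 such bins of chromosomes 1 to 19, X and Y. The intervals were set by position, not by any value, and stand for 38 listed Hox genes: 10 in Hoxa, 10 in Hoxb, 9 in Hoxc and 9 in Hoxd. A read was counted in the bin that held its midpoint.

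The study mapped histone marks in mature CD4+ and mature CD8+ T cells taken from the thymus of C57BL/6 mice. Nuclei were digested with micrococcal nuclease (MNase), an enzyme that cuts between nucleosomes, and the mononucleosomes were precipitated with rabbit polyclonal antibodies to histone H3 trimethylated at lysine 4 (H3K4me3) or lysine 36 (H3K36me3). Each cell type also has an input library, made with no antibody. All 6 groups have the same strain and organ and hold 1 library each. Without replicates there are no p-values here, and a difference between CD4+ and CD8+ values is one between libraries, not between conditions. The labels give no treatment, age or number of mice, and the cell labels were not checked against marker genes because no mm9 gene annotation was used here.

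The libraries held between 6844546 and 12136610 reads of 33 bp. The share of reads at distinct positions was 54.4% in the CD4+ H3K4me3 library and 31.4% in the CD8+ one, against 91.2% or more in the other 4. Far from any enriched bin, H3K4me3 reads scaled to library size (RPM) stood at 21.8% of input in CD4+ and 1.80% in CD8+ cells, so the CD4+ library had the higher background. Intervals below are exact 95% intervals (Clopper-Pearson, conditional on the sum of the 2 counts). They cover counting error only; with no molecular identifiers, several reads may come from a single molecule.

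Hox genes encode homeodomain transcription factors that set position along the body axis, and their order on the chromosome follows the order in which they act along that axis. Trithorax-group complexes, which deposit H3K4 methylation, keep Hox genes active, and Polycomb-group complexes keep them silent. H3K4me3 marks promoters, most of all those rich in CpG dinucleotides, and H3K36me3 is laid down over the bodies of genes as they are transcribed. In the blood system, Hoxa9 and Hoxa10 are known from progenitors, Hoxb4 from the expansion of stem cells, and Hoxa3 from the formation of the thymus itself, whereas Hoxb13, Hoxc13 and the digit genes Hoxa13 and Hoxd13 are best known from prostate, hair and limb.

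All 38 genes were found in RefSeq's gene table, which uses build GRCm38.p6 and served here for names and order only. From low to high coordinate, Hoxa runs from Hoxa2 through Hoxa3 and Hoxa9 to Hoxa13, Hoxb from Hoxb13 to Hoxb1, Hoxc from Hoxc13 to Hoxc4 and Hoxd from Hoxd13 to Hoxd1. The nearest protein-coding genes beyond the arrays are Skap2 and Evx1 for Hoxa, Ttll6 and Skap1 for Hoxb, Calcoco1 and Smug1 for Hoxc, and Evx2 and Mtx2 for Hoxd; Skap1 and Skap2 are adaptor proteins of immune-cell signalling. Whether this order holds in mm9 was not tested, so no signal below is assigned to a gene.

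RefSeq gave promoter sequence for 22 of the 38 genes: 9 of Hoxa, 3 of Hoxb, 1 of Hoxc and 9 of Hoxd. CpG was counted in the 250 bases before the start (the dinucleotide CG reads the same on both strands; where a gene had several starts, the one with most CpG was taken). The median was 18 in Hoxa (3 to 35), 12 in Hoxb (7 to 14) and 13 in Hoxd (3 to 31), and the single Hoxc promoter held 8. Across 27025 genes the median was 6. The most CpG-rich promoters of Hoxa and Hoxd are printed because these clusters, equal in length and similar in their richest promoters, stood at opposite ends of the H3K4me3 scale below. They are Hoxa13, chr6:52260881-52261130 on the minus strand with 35 CpG, and Hoxd13, chr2:74667975-74668224 on the plus strand with 31, both in GRCm38.p6, a build whose positions cannot be set against the mm9 intervals. Each sequence is from RefSeq, 5′ to 3′ on the gene's strand, with every CG in capitals.
Hoxa13: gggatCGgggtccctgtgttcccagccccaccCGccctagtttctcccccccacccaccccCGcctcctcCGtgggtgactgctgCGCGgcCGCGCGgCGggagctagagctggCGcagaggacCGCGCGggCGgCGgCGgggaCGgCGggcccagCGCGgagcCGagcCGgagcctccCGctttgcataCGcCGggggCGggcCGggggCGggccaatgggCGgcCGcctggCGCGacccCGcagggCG
Hoxd13: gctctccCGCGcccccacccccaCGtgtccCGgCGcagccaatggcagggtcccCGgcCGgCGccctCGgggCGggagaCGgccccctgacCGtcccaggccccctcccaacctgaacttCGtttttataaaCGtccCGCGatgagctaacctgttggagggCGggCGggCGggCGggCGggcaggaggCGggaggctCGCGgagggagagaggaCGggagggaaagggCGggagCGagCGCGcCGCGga

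H3K4me3 took up few bins of the Hox clusters, though a larger share than of all bins, in narrow domains and most of all in Hoxa. A bin counted as enriched with 10 reads or more and an RPM 4 or more times that of its own input, input being set to no fewer than 3 reads, which made the lowest count that could pass 13 in CD4+ and 15 in CD8+ cells. By that rule 16 of the 545 Hox bins (2.94%) were enriched in CD4+ cells, where 1.33% of all bins were, and 17 (3.12%) were enriched in CD8+ cells, where 1.16% of all bins were. The 2 sets shared 14 bins, 87.5% of those in CD4+ and 82.4% of those in CD8+ cells. With the input of the other cell type in place of the antibody library, 0.115% (CD4+) and 0.0398% (CD8+) of all bins passed.

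The clusters divided these bins unequally. Hoxa held 8 in CD4+ and 10 in CD8+ cells (6.96% and 8.70% of its 115 bins). Hoxb held 4 in each (2.16%) and Hoxc held 3 in each (2.31%). In Hoxd, 1 bin was enriched in CD4+ cells (0.870%) and none in CD8+ cells. At the genome-wide shares above, 115 bins such as those of Hoxa or Hoxd would hold 1.53 enriched bins in CD4+ and 1.33 in CD8+ cells, the 185 bins of Hoxb 2.46 and 2.15, and the 130 of Hoxc 1.73 and 1.51. The Hoxa counts were several times that number, while the other 3 clusters were within about 2 bins of it, and with each read position counted once Hoxd held 2 and 1.

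**Figure D1:**
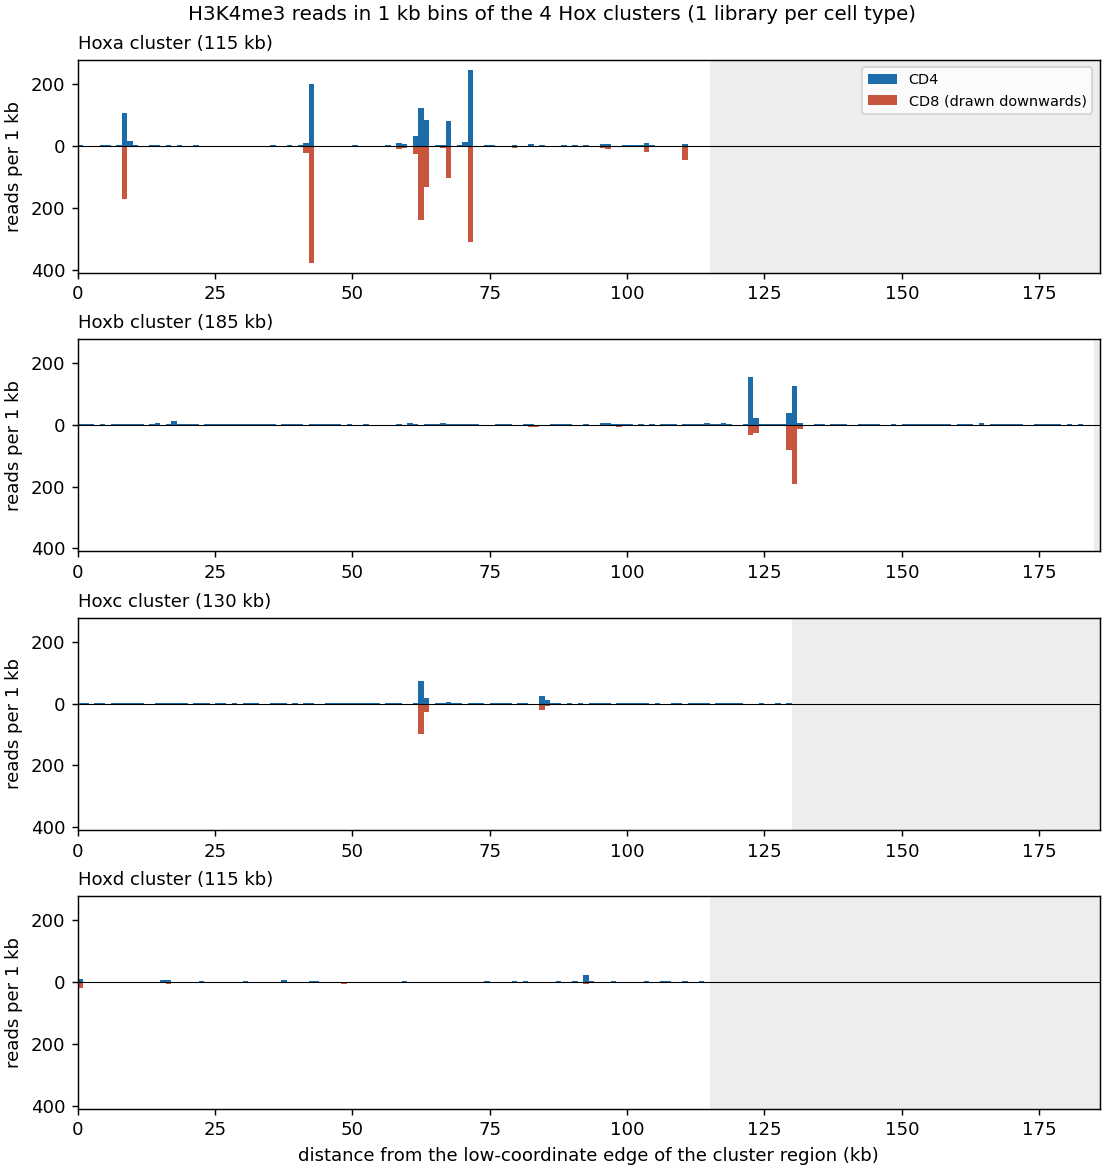
H3K4me3 read counts per 1 kb bin across the 4 Hox clusters, against distance from the start of each interval in kb, with CD4+ bars drawn upward, CD8+ bars downward and grey beyond the end of an interval. A few tall bins stand over near-empty stretches: the median bin of each cluster holds 1 CD4+ read and 0 CD8+ reads.

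The enriched Hox bins were mostly lower than the typical enriched bin. Their median was 76 reads in CD4+ cells against 120 over all enriched bins, and 80 reads in CD8+ cells against 197. Those Hox medians were at the 39.7th percentile of enriched bins in CD4+ and the 32.9th in CD8+ cells. The tallest Hox bin was at the 67.6th percentile of enriched bins in CD4+ cells, with 247 reads, and at the 64.3rd in CD8+ cells, with 378.

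In Hoxa the signal lay in the middle of the array. When the cluster was cut into 3 equal stretches, the middle one held 77.8% of CD4+ and 80.4% of CD8+ H3K4me3 reads. The 2 tallest bins were the same in both cell types. Bin chr6:52171001-52172000 held 247 reads in CD4+ and 309 in CD8+ cells over 3 and 1 input reads, and bin chr6:52142001-52143000 held 202 and 378 over 3 and 1. The longest stretch of Hoxa with no enriched bin was 32 kb.

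H3K4me3 domains were runs of 200 bp bins at 4 or more times the input, merged where no more than 400 bp apart and holding at least 20 reads. Input was again set to no fewer than 3 reads, so a 200 bp bin needed 13 reads in CD4+ and 15 in CD8+ cells. That asks for denser reads than the 1 kb rule, so low or spread signal can give a narrow domain or none. The domains too lay mostly in Hoxa. CD4+ cells had 8 in the 4 clusters (5 in Hoxa, 2 in Hoxb, 1 in Hoxc, 0 in Hoxd), covering 6.2 kb, and CD8+ cells had 9 (6, 2, 1 and 0), covering 6.6 kb. Their median width was 700 bp in CD4+ and 600 bp in CD8+ cells, where the median over all domains was 1000 bp in each. The widest, in Hoxa, was 1600 bp in CD4+ cells (chr6:52161801-52163400) and 1400 bp in CD8+ cells (chr6:52162001-52163400), with 215 and 363 reads. These widths are at the 82.4th and 80.0th percentiles of all domains, so wider domains than these were common elsewhere. By reads the same domains stood lower, at the 39.1st and 38.9th percentiles, where the medians over all domains were 343 and 591 reads.

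The next widest Hoxa domain spanned chr6:52108201-52109000 in both cell types, 800 bp with 100 reads in CD4+ and 162 in CD8+ cells. A domain at chr6:52167001-52167600 held 65 reads in CD4+ cells and reached 52167800 in CD8+ cells with 98. All 5 CD4+ domains of Hoxa overlapped a CD8+ one. The sixth CD8+ domain, chr6:52210601-52210800, had no CD4+ counterpart: it held 27 reads at 11 positions, where the CD4+ library had 5 reads.

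Hoxb carried its H3K4me3 past the middle of the interval. No bin was enriched in the first 122 kb, and all 4 enriched bins lay between chr11:96172001 and 96181000. Bin chr11:96180001-96181000 held 124 reads in CD4+ and 193 in CD8+ cells, and its neighbour chr11:96179001-96180000 held 38 and 80. They formed a domain of 1000 bp in CD4+ cells (chr11:96179801-96180800, 136 reads) and 1400 bp in CD8+ cells (chr11:96179401-96180800, 261 reads), the widest of Hoxb.

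Hoxc held a single domain, of 600 bp in both cell types: chr15:102807401-102808000 with 68 CD4+ reads and chr15:102807601-102808200 with 118 CD8+ reads. The tallest Hoxc bin, chr15:102807001-102808000, held 72 reads in CD4+ and 99 in CD8+ cells. The next were chr15:102829001-102830000 in the CD4+ library (24 reads, 21 in CD8+) and chr15:102808001-102809000 in the CD8+ one (28 reads, 19 in CD4+). The rest of the cluster was almost empty in CD8+ cells, where 106 of its 130 bins held no H3K4me3 read.

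Hoxd had no domain in either cell type. Its tallest CD4+ bin, chr2:74587001-74588000, held 23 reads in CD4+ cells over 2 of input. No 200 bp step of that bin held more than 10 CD4+ reads, under the 13 that a domain bin needed. The bin at its low edge, chr2:74495001-74496000, held 10 reads in CD4+ and 17 in CD8+ cells, over 3 and 4 of input, and fell just short of the 4-fold rule. That edge bin was the tallest Hoxd bin in CD8+ cells, where 86 of the 115 bins held no read.

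Summed over whole clusters, the H3K4me3 libraries gave 1087 CD4+ and 1553 CD8+ reads in Hoxa, 606 and 454 in Hoxb, 267 and 184 in Hoxc, and 188 and 74 in Hoxd. Relative to input, only the Hoxa sums lay above 1: 2.37-fold (2.12 to 2.65) in CD4+ and 3.78-fold (3.36 to 4.27) in CD8+ cells. Hoxb stood at 0.954 and 0.653, Hoxc at 0.574 and 0.351 and Hoxd at 0.446 and 0.175 times the input. A value under 1 was not low next to the genome. Tiles of the same lengths had medians between 113 and 193 reads in CD4+ and between 10 and 20 in CD8+ cells. Among those tiles Hoxa was at the 85.6th (CD4+) and 86.7th (CD8+) percentiles, and the other 3 clusters between the 66.2nd and 69.0th. Domains held 74.0% of the Hoxa reads in CD4+ and 84.9% in CD8+ cells, 50.5% and 65.0% in Hoxb, and 25.5% and 64.1% in Hoxc.

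CD4+ to CD8+ ratios were centred on the bins enriched in both cell types across the genome, which moved them up by 0.35 on the log2 scale from total-read scaling. On that scale the interval of the Hoxa ratio included 0, at a log2 of 0.01 (-0.10 to 0.12), whereas total-read scaling put it at -0.34. Hoxb was 1.92-fold higher in CD4+ cells (log2 0.94, 0.76 to 1.12), Hoxc 2.09-fold (1.06, 0.78 to 1.34) and Hoxd 3.65-fold (1.87, 1.47 to 2.28). Those excesses shrank when the background of each library was subtracted, to 0.61, 0.45 and 1.06, with Hoxa at -0.12. In the enriched bins alone, Hoxc was at 0.16 and Hoxa at -0.14, while Hoxb was at 0.57 and Hoxd, with its single bin, at 2.46. The Hoxb value rested on 1 bin, chr11:96172001-96173000: the other 3 enriched bins held 185 CD4+ and 298 CD8+ reads, which put them at -0.16 (-0.44 to 0.11). In the bins enriched in neither cell type the ratio was 1.26 in Hoxa, 1.63 in Hoxb, 2.60 in Hoxc and 1.80 in Hoxd. The signal outside enriched bins was thus higher in the CD4+ library in all 4 clusters, as it was across the genome. Outside the clusters and far from enriched bins, 2003281 CD4+ and 188109 CD8+ reads were counted, a larger ratio than in any cluster. This excess is therefore not particular to the Hox clusters.

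**Figure D2:**
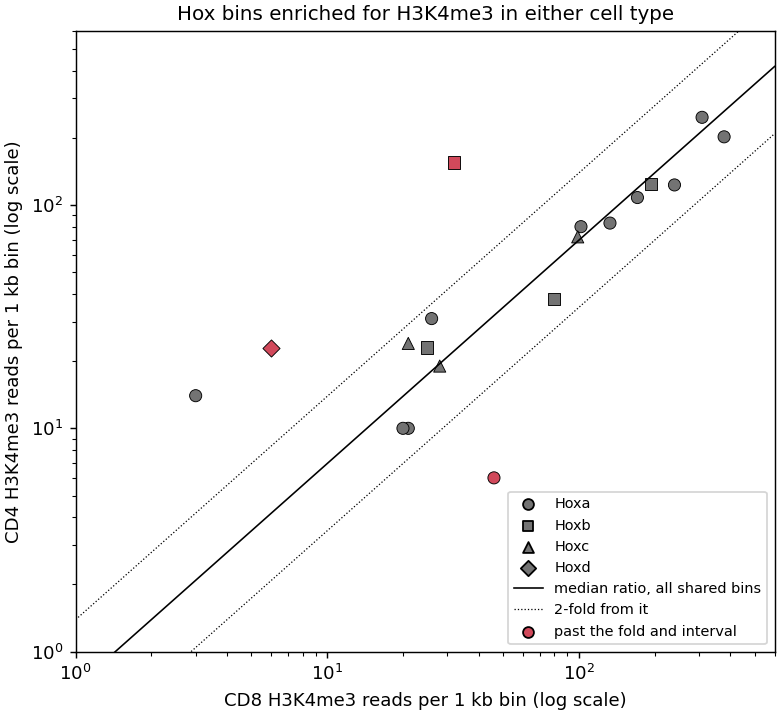
CD4+ (vertical) against CD8+ (horizontal) H3K4me3 reads per 1 kb for the 19 Hox bins enriched in either cell type, on log axes, with the cluster shown by shape, the median ratio of all shared bins as a line and 2-fold bounds dotted. The 3 called bins, in red, stand outside those bounds, with 155 and 32 reads in Hoxb, 6 and 46 in Hoxa, and 23 and 6 in Hoxd (CD4+ and CD8+).

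Few single bins differed. A bin was called different when the centred fold was at least 2 and its exact interval, taken here at an error rate of 0.001, excluded 1. Among the 37332 bins enriched in either cell type, 26.6% were higher in CD4+ and 6.79% higher in CD8+ cells; scaled to total reads, these shares were 20.1% and 15.8%. Among the 19 Hox bins, 2 (10.5%) were higher in CD4+ and 1 (5.26%) in CD8+ cells, and 16 were not called, with the same counts under total-read scaling. With 19 bins, these shares are not set apart from the genome.

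The clearest difference was in Hoxb. Bin chr11:96172001-96173000 held 155 CD4+ reads at 104 positions and 32 CD8+ reads at 24 positions, over 5 and 4 input reads. The centred ratio was 6.96-fold (4.74 to 10.5) toward CD4+. In 200 bp steps across the bin, the CD4+ library held 0, 2, 32, 36 and 85 reads and the CD8+ library 0, 0, 8, 9 and 15. The excess ran over the 3 high-coordinate steps, not at 1 position. The domain there was 800 bp in CD4+ cells (chr11:96172401-96173200, 170 reads against 51 in CD8+ cells) and 400 bp in CD8+ cells (chr11:96172801-96173200, 34 reads). At the other Hoxb domain the libraries were level, with 136 and 210 reads over the CD4+ span and a centred ratio of 0.931 (0.745 to 1.16).

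In Hoxa the called difference went the other way. Bin chr6:52210001-52211000 held 6 reads in CD4+ and 46 in CD8+ cells, 5.33-fold (2.27 to 15.3) toward CD8+, at 5 and 24 positions. Its 200 bp steps held 0, 0, 0, 5 and 1 reads in CD4+ cells and 5, 3, 0, 27 and 11 in CD8+ cells. Another Hoxa bin, chr6:52170001-52171000, enriched in CD4+ cells alone, leaned toward CD4+ with 14 and 3 reads, 6.71-fold (1.87 to 36.4), but was not called at these counts. In Hoxd, bin chr2:74587001-74588000 held 23 and 6 reads, 5.51-fold (2.18 to 16.5) toward CD4+, and was the sole enriched bin of Hoxd. All its reads were at distinct positions. When each position was counted once across the genome, its reads were the same 23 and 6, but the centre moved, its log2 ratio went from 2.46 to 2.00, and it was no longer called.

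Between the enriched bins, H3K4me3 was low on average but above the genome's bins far from enriched ones. Over the 502 Hox bins that were neither enriched nor next to an enriched bin, H3K4me3 was at 37.1% of input (33.9 to 40.5; 688 reads) in the CD4+ library and 15.1% (13.3 to 17.1; 292 reads) in the CD8+ one. Bins of the rest of the genome lying 1 to 10 kb from an enriched bin stood at 29.0% and 5.23%, and those farther off at 21.8% and 1.80%. Hoxa was at 35.99% (29.3 to 44.0) in CD4+ and 25.5% (19.9 to 32.5) in CD8+ cells, Hoxb at 41.3% (35.5 to 47.9) and 16.0% (12.9 to 19.7), and Hoxd at 38.8% (32.1 to 46.7) and 16.3% (12.4 to 21.3). Hoxc was the lowest, at 30.8% (25.2 to 37.4) and 5.75% (3.81 to 8.39), within counting error of the bins near enriched ones. These percentages are sums over uneven bins, not an even level. Of the 67 CD8+ reads behind the Hoxd value, 17 were in the edge bin chr2:74495001-74496000. Of the 88 behind the Hoxa value, chr6:52158001-52159000 and chr6:52196001-52197000 held 11 each. Input itself was thinner in the clusters than beside them, between 0.295 and 0.372 RPM per kb against 0.346 to 0.532 in flanks of equal length. Its part in these percentages was not tested.

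**Figure D3:**
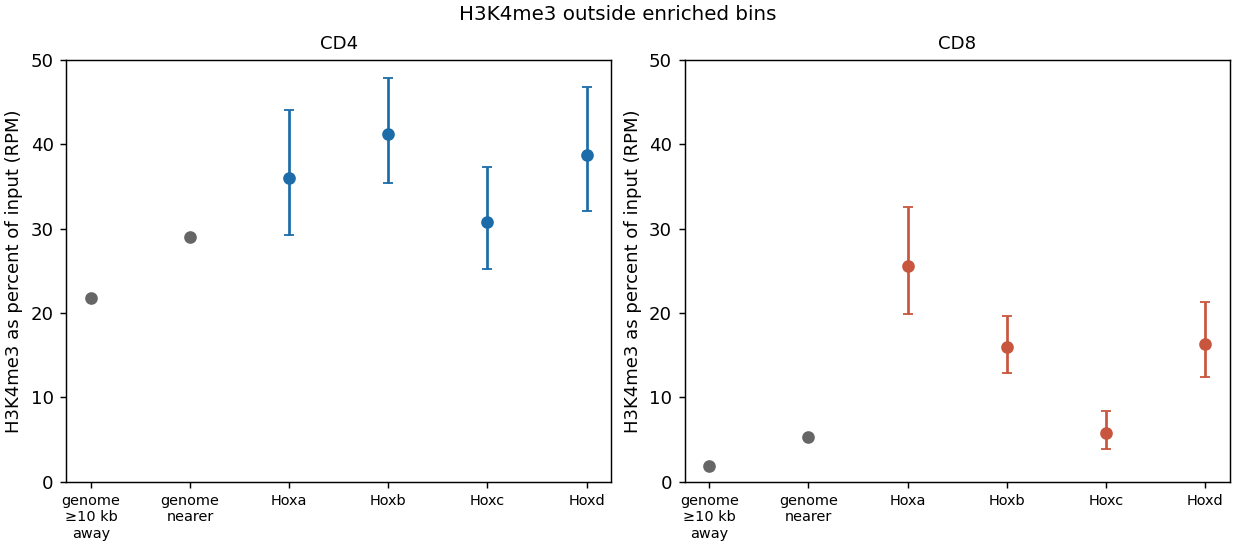
H3K4me3 outside enriched bins as a percentage of input for each Hox cluster and for 2 classes of other genome bins, CD4+ and CD8+, with exact 95% intervals. In CD8+ cells Hoxa (25.5%), Hoxb (16.0%) and Hoxd (16.3%) lie above Hoxc (5.75%), which sits beside the bins near enriched ones (5.23%).

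H3K36me3 was below input over every cluster. Reads in CD4+ and CD8+ cells numbered 235 and 158 in Hoxa, 345 and 257 in Hoxb, 159 and 116 in Hoxc, and 165 and 155 in Hoxd. Relative to input this was 0.816 (0.694 to 0.959) and 0.690 (0.568 to 0.836) in Hoxa, and 0.866 (0.757 to 0.990) and 0.662 (0.569 to 0.768) in Hoxb. Hoxc was lowest, at 0.545 (0.452 to 0.655) and 0.396 (0.320 to 0.488), and Hoxd stood at 0.623 (0.517 to 0.749) and 0.658 (0.541 to 0.797). Genome tiles of the same lengths had medians between 0.371 and 0.409, and the clusters fell between the 49.2nd and 68.6th percentiles of those tiles.

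The flanks differed by cluster. Beside Hoxb, the flanks of equal length carried 1.73 (low side) and 2.17 (high side) times the input in CD4+ cells and 1.74 and 2.36 in CD8+ cells, so the cluster was a trough between marked regions. Hoxd was also lower than its flanks, which stood at 1.32 and 1.18 in CD4+ and 1.41 and 1.12 in CD8+ cells. Hoxa lay close to its low flank (0.894 and 0.829) and above its high flank (0.524 and 0.498). Hoxc lay between a low flank of 0.332 and 0.274 and a high flank of 0.686 and 0.561.

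**Figure D4:**
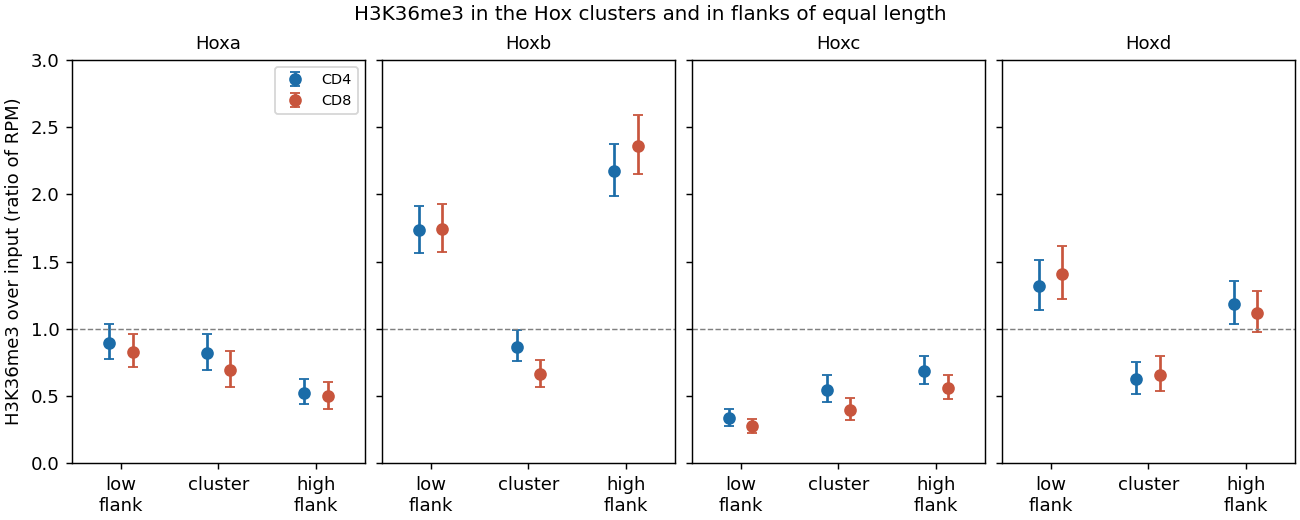
H3K36me3 relative to input, with exact 95% intervals, in each Hox cluster and in flanks of equal length on both sides, CD4+ and CD8+, with a dashed line at 1. All 8 cluster values lie below 1, and both flanks of Hoxb lie at 1.73 or more.

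At 10 kb resolution, a window was called enriched for H3K36me3 with at least 20 reads and 2 times the input. Across the genome 10.3% of windows passed in CD4+ and 10.2% in CD8+ cells. Of the 52 windows lying wholly in the clusters, 1 passed in each cell type, and it was the same window, chr11:96070001-96080000 in Hoxb. It held 49 reads over 28 of input in CD4+ cells (2.64-fold, 1.63 to 4.37) and 60 over 34 in CD8+ cells (2.61-fold, 1.68 to 4.09). This window lies far from the enriched H3K4me3 bins of Hoxb, in the first 122 kb, where no bin was enriched.

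The highest Hoxa window was chr6:52150001-52160000 in both cell types, at 1.92 (1.19 to 3.13) and 1.90 (1.03 to 3.53) times the input. The lowest was chr6:52200001-52210000 in CD4+ cells (0.341) and chr6:52170001-52180000 in CD8+ cells (0.328). The latter held the tallest CD4+ H3K4me3 bin of the cluster. In Hoxd the highest window, chr2:74580001-74590000, stood at 1.22 (0.690 to 2.13) and 1.42 (0.775 to 2.59), with intervals that include 1. It contained the sole enriched H3K4me3 bin of Hoxd. The lowest Hoxd windows were chr2:74510001-74520000 in CD4+ (0.349) and chr2:74540001-74550000 in CD8+ cells (0.246).

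Every Hoxc window was below input, from 0.280 (chr15:102820001-102830000) to 0.728 (chr15:102810001-102820000) in CD4+ cells and from 0.164 (chr15:102750001-102760000) to 0.590 (chr15:102810001-102820000) in CD8+ cells. The lowest Hoxb windows were chr11:96100001-96110000 in CD4+ (0.343) and chr11:96210001-96220000 in CD8+ cells (0.130). The median window of the genome stood at 0.394 and 0.403. Among genome windows, that CD8+ Hoxb window was at the 4.83rd percentile and the lowest CD8+ Hoxc window at the 8.85th.

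**Figure D5:**
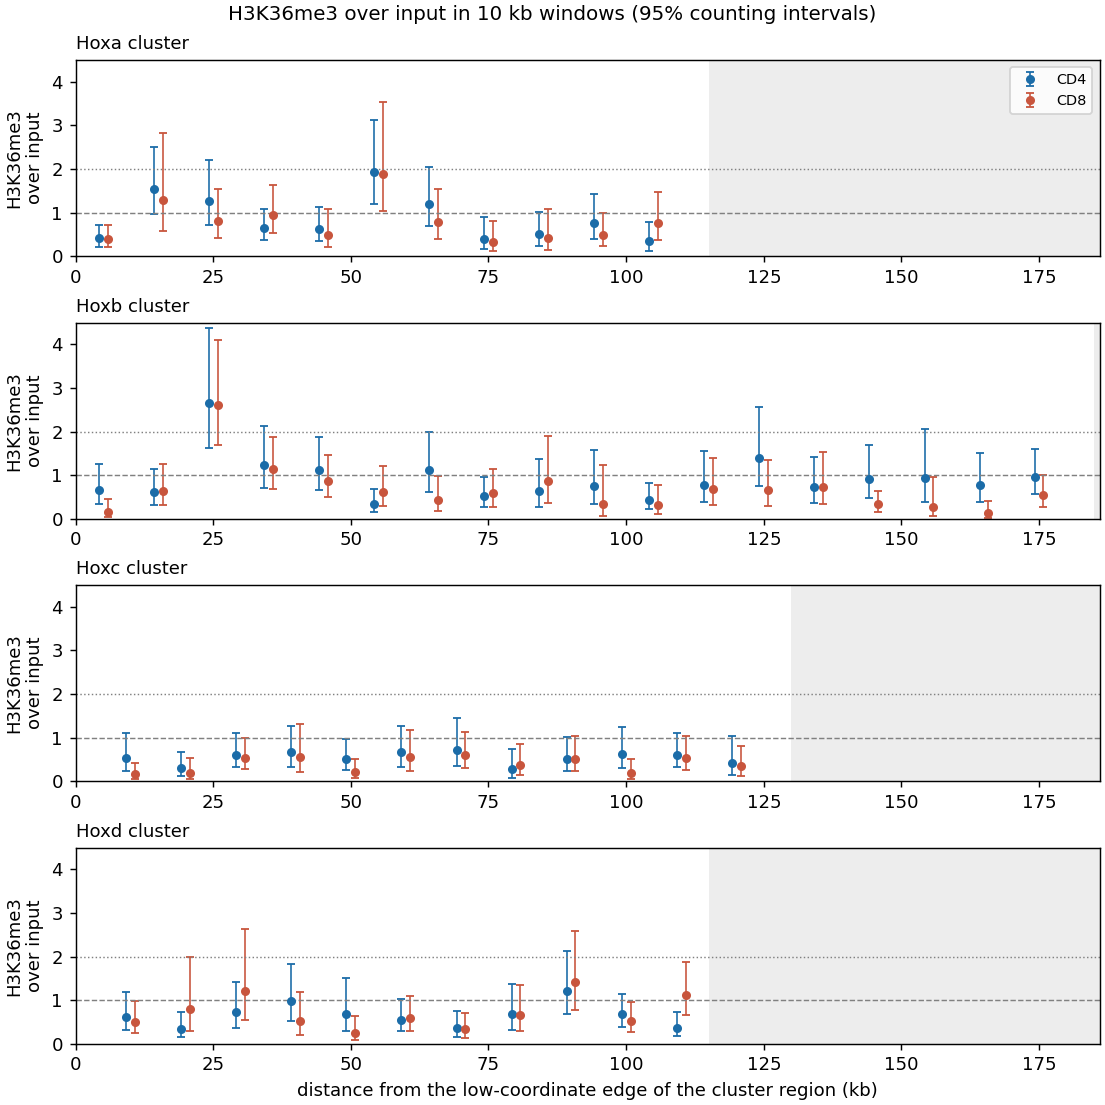
H3K36me3 relative to input in the 10 kb windows of each Hox cluster, against distance along the interval in kb, CD4+ and CD8+, with exact 95% intervals, lines at 1 and 2, and grey beyond the end of an interval. One Hoxb window stands above 2 in both cell types (2.64 and 2.61), and no Hoxc window reaches 1.

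By centred read counts, before input was considered, H3K36me3 was higher in the CD4+ than in the CD8+ library over 3 clusters. The centred log2 ratio was 0.62 (0.32 to 0.92) in Hoxa, 0.47 (0.23 to 0.71) in Hoxb and 0.50 (0.14 to 0.86) in Hoxc, and 0.13 (-0.19 to 0.46) in Hoxd, whose interval includes 0. Tiles of the genome of the same lengths, also below input in both cell types, had median log2 ratios between -0.08 and -0.07. The inputs differed in Hoxa as well, with 435 CD4+ and 338 CD8+ reads, 1.26-fold (1.09 to 1.46) higher in CD4+. Over each cell type's own input the Hoxa ratio was 0.28, and those of Hoxb, Hoxc and Hoxd were 0.43, 0.50 and -0.04. No interval was computed for these ratios. The intervals over input given earlier overlap between the cell types in every cluster, widely in Hoxa and narrowly in Hoxb and Hoxc.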

How the data were processed

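Per the labels' protocols, mononucleosomes were made with MNase, immunoprecipitated and sequenced. The deposited files give read positions, 1 line per read, in mm9 per the submitters' processing notes, with no other value; aligner: not given in the sources used here, nor is the handling of repeated or multiply mapped reads. Chromosomes 1 to 19, X and Y were used (98.3% to 99.8% of each library), with reads counted by midpoint, repeated positions included. Clusters, members, lists and rules were chosen with earlier results of these data known. Named items were, per cluster, the 3 widest domains and 2 tallest bins of each cell type, the bins called different, and the highest and lowest 10 kb windows; other bins and windows were singled out after their values were seen. Marker, cofactor and regulator lists were not used here, since no mm9 annotation was. Scripts were tested on simulated data. Alternatives covered repeated reads, fold, bin size and offset, scaling, background and inputs. Software was SciPy 1.17.1, pandas 2.3.3, NumPy 2.4.6 and matplotlib 3.10.9 under Python 3.11.15.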

Additional observations from a re-analysis of the deposited data

How the results depend on the processing

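No paired analysis was possible because each group holds 1 library, and no library could be left out. The Hoxb H3K4me3 ratio changed sign, to -0.16, in its enriched bins without the bin called higher in CD4+ (chosen after seeing the data). Its interval there, -0.44 to 0.11, includes 0, so those bins do not show a reversed difference. The Hoxa ratio, near 0, changed sign under several settings. Of the other alternative values for the main results, 32 moved and 86 stayed within 1.5 times the main count or inside the main value's 95% interval, and the cause was not tested except where a stricter or looser rule passes fewer or more features by construction. With 1 read per position, the Hox bins higher in CD4+ numbered 1, the log2 H3K4me3 ratios of CD4+ to CD8+ were -0.13 in Hoxa, 0.66 in Hoxb and 1.43 in Hoxd, the median CD8+ domain width was 1000 bp, and H3K36me3-enriched windows numbered 2 and 2. The Hoxb bin kept its call (log2 2.18 against 2.80) and the Hoxd bin lost it (2.00 against 2.46) with the same 23 and 6 reads, through the re-estimated centre alone. At 8 times the input, CD8+ enriched bins covered 10 kb, CD4+ domains 3 kb with a median width of 400 bp, and CD8+ domains 4.2 kb. With bins shifted by 500 bp, 1 bin was higher in CD4+. With 2 kb bins, 28 kb were enriched in CD8+. Scaled to total reads, the ratios were -0.34, 0.59 and 0.71 in Hoxa, Hoxb and Hoxc; with background subtracted they were -0.12, 0.61, 0.45 and, in Hoxd, 1.06; in the bins enriched in either cell type they were -0.14, 0.57, 0.16 and 2.46; in bins enriched in neither (chosen after seeing the data) they were 1.26, 1.63 and 2.60 in Hoxa, Hoxb and Hoxc. The Hoxa H3K36me3 ratio over own inputs (likewise chosen afterwards) was 0.28. At 3 times the input, 0 windows were enriched for H3K36me3 in each cell type, and at 1.5 times 3 in CD4+ and 2 in CD8+. Depth limits single bins: most hold 0 or 1 read, so small differences were not detectable.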

Other observations

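Within the single H3K36me3-enriched window of Hoxb, most of the signal sat in 2 kb, chr11:96072001-96074000, a stretch chosen after its values were seen. It held 31 reads at 27 positions over 4 input reads in CD4+ cells (11.7-fold, 4.14 to 45.7) and 50 reads at 48 positions over 6 in CD8+ cells (12.3-fold, 5.27 to 35.1). H3K4me3 reads there numbered 2 and 0, and the nearest bin enriched for H3K4me3 lay 37 kb below and 98 kb above. Without this stretch, H3K36me3 over Hoxb was 0.794 (0.690 to 0.911) and 0.539 (0.457 to 0.633) times the input. The source of the reads was not tested.

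Along the clusters, the CD4+ and CD8+ H3K4me3 profiles (log2 of reads plus 1, per 1 kb bin) had a Pearson r of 0.857 (Spearman rho 0.589) over 115 bins in Hoxa, 0.630 (0.307) over 185 in Hoxb, 0.678 (0.291) over 130 in Hoxc and 0.422 (0.297) over 115 in Hoxd. Most bins held few or no reads. Bins of one library share depth and background, so these values are descriptions.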
